A study of Sus scrofa with 92 samples.

Results

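Mitochondria take in their fuel at a few gates, and 6 genes of these gates are described here across the tissues of the pig: PDHA1, PDHB, PDK1, HADHB, ACAA2 and PANK1. They were chosen by gene symbol among 25322 gene IDs of the expression tables, and each symbol belonged to 1 ID (ENSSSCG00000023643, ENSSSCG00000025881, ENSSSCG00000015958, ENSSSCG00000008569, ENSSSCG00000004510 and ENSSSCG00000010456, in that order). All 6 were above 0 in all 92 libraries. Pyruvate from glycolysis enters through the pyruvate dehydrogenase complex, in which PDHA1 and PDHB encode the alpha and beta subunits of the first enzyme, E1. PDK1 encodes a kinase that phosphorylates the alpha subunit and so switches the complex off. Fatty acids enter through beta oxidation, whose last step is cut by a thiolase: HADHB is the thiolase subunit of the membrane-bound trifunctional protein, which works on long chains, and ACAA2 is the soluble thiolase of the matrix for shorter chains. PANK1 is a pantothenate kinase, which controls the synthesis of coenzyme A, the carrier that both routes need. Heart and oxidative muscle are known for burning fatty acids, and liver for turning them into ketone bodies.

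The libraries were total RNA of pigs aged 60 days, 1 library for each breed and tissue, and breeds serve as replicates. The Western pigs were Large White, Landrace, Piétrain, Hampshire and Berkshire. The Chinese pigs were Meishan, Jinhua, Rongchang, Bamei and Tibetan wild boar. This origin is general knowledge and is not written in the labels. There were 9 libraries each of heart, kidney, liver, ovary and subcutaneous adipose, 10 each of spleen and of the skeletal muscles psoas major and longissimus dorsi, and 8 of lung, which makes 83 single tissue libraries. A further 9 libraries were mixtures of tissues in unstated proportions. Rongchang lacked a lung library, and Tibetan wild boar was represented by spleen and the skeletal muscles. No treatment is named for any group, and nothing in the labels tells how many animals stand behind a library or whether a breed's tissues share an animal, so p-values measure the spread between these libraries.

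Levels are FPKM, fragments scaled to gene length and to the library, brought to a common scale between libraries by median ratios and called scaled FPKM below. The scaling factors ran from 0.516 to 1.67, lowest in skeletal muscle and highest in ovary, and deposited totals from 519075 to 2196138 FPKM. Read depth is unknown, and errors are the spread over breeds. Defining markers of heart, liver, lung, kidney, spleen, ovary, skeletal muscle and fat were highest in the tissue so labelled, with 1 library to name: the adipose sample of Meishan carried a summed skeletal muscle marker level of 3594 scaled FPKM, against 41.5 to 784 in the other 8 adipose libraries.

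Tissue set the level of all 6 genes far more than breed did. Over the 72 libraries of 8 tissues and 9 breeds, tissue held between 86.7% of the variance (PDK1) and 96.8% (PDHA1), and the median over 16996 genes was 82.7%. Breed held between 0.815% (PDHA1) and 3.22% (PDK1), against a median of 4.23%. Neighbours in the order of tissue means were compared with limma, and between 2 of 8 (PDK1) and 6 of 8 (ACAA2) such steps passed. Most genes differ between organs, so a step is read against the share of all genes called in that pair. The share was 16.6% between psoas and longissimus, and for heart 49.6% against psoas, 52.1% against longissimus and 68.9% against liver. For kidney it was 65.8% against adipose, 66.2% against lung, 67.3% against liver, 69% against psoas, 70.1% against longissimus and 74.7% against ovary. For spleen it was 62.2% against lung, 67.1% against adipose, 71.6% against liver, 71.7% against psoas and 78.2% against ovary. It was 64.1% for adipose against longissimus, 68.4% for liver against adipose, 71.5% for longissimus against liver, 74% for longissimus against lung, 74.7% for adipose against ovary and 75.2% for ovary against lung. The steps below are therefore levels to compare, not traits that set these genes apart. In whole tissue a lower level can mean fewer cells of a type or less RNA per cell, and these cannot be told apart.

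**Figure D1:**
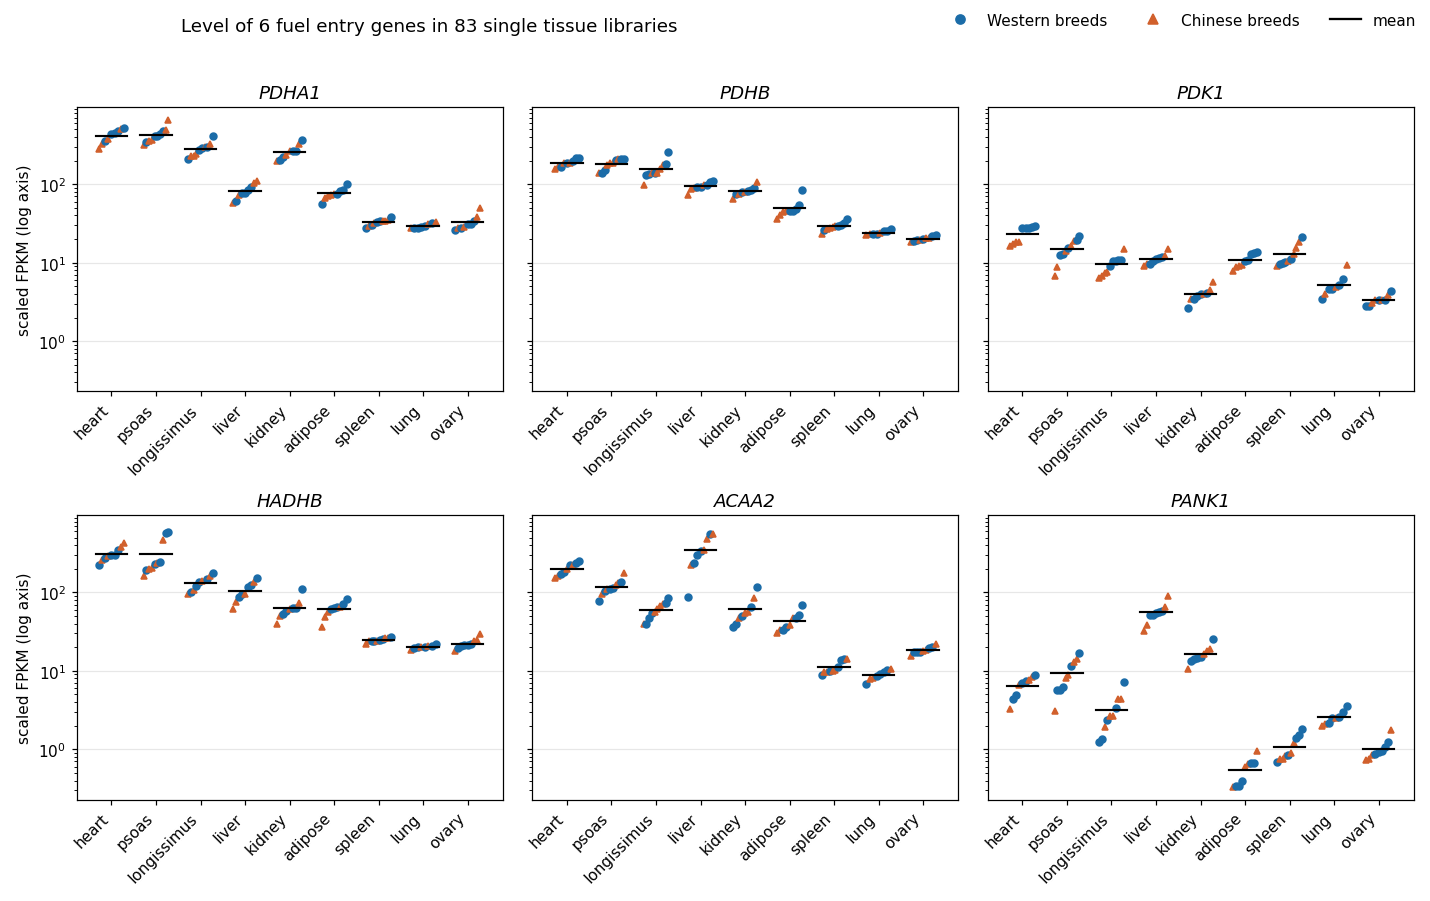
Level of the 6 genes in scaled FPKM (log axis) in the 83 single tissue libraries; each point is a breed, circles Western and triangles Chinese, and bars are means. On this scale PDHA1, PDHB and HADHB are highest in the striated muscles, ACAA2 and PANK1 in liver, and PDK1 in heart.

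PDHA1, which carries the sites that the kinases phosphorylate, was highest in psoas major (428 ± 99.8 scaled FPKM, SD, n = 10) and heart (415 ± 82.7, n = 9). Longissimus dorsi (280 ± 58.7, n = 10) and kidney (261 ± 55.4, n = 9) came next, then liver (82.1 ± 17.8) and adipose (76.2 ± 12.5). Ovary, spleen and lung had 29.6 to 32.8 on average. On scaled FPKM the tissues fell into 4 levels. Neighbours within a level did not pass the test: psoas against heart (adjusted p = 0.837), longissimus against kidney (0.437), liver against adipose (0.486), spleen against ovary (0.929) and ovary against lung (0.249). The top of the order rests on the scaling. On deposited FPKM heart was above psoas by a log2 difference of 0.39, with both at lower levels (344 ± 51.6 and 263 ± 62.5 FPKM). Kidney (314 ± 51.3 FPKM) then had a higher mean than psoas and longissimus (173 ± 35.3).

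PDHB, the partner subunit, was at 187 ± 21.5 scaled FPKM in heart, 181 ± 28.5 in psoas and 155 ± 42.7 in longissimus, and these neighbours did not pass (heart against psoas adjusted p = 0.711, psoas against longissimus 0.0596), while heart was above longissimus by a log2 difference of 0.29 (0.00655). Liver (94.2 ± 11.1) stood before kidney (81.5 ± 11.4) here, with an adjusted p of 0.0503. Adipose followed at 49.6 ± 14.3, spleen at 29.0 ± 3.47, lung at 24.2 ± 1.37 and ovary at 20.2 ± 1.28, each below the one before by the test. The order of liver and kidney rests on the scaling. On deposited FPKM kidney (83.3 to 126) was above liver (50.2 to 73.6) without overlap. Heart (138 to 177) was likewise above psoas (86.9 to 133) on deposited FPKM. Kidney had a deposited mean (98.6) beside that of longissimus (95.1).

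The ratio of the E1 subunits was therefore not the same in all tissues, although their proteins join in equal number. In kidney the log2 ratio of PDHA1 to PDHB had a mean of 1.65 ± 0.30 (SD, n = 9; range 1.13 to 2.10). In liver it had a mean of -0.22 ± 0.40 (range -0.59 to 0.58), and PDHA1 exceeded PDHB in 2 of 9 livers, those of Bamei and Jinhua. The ranges of kidney and liver did not overlap. PDHA1 was the higher of the pair in 9 of 9 hearts (mean 1.13), 10 of 10 psoas (1.23), 10 of 10 longissimus (0.86), 9 of 9 adipose, 9 of 9 ovary, 8 of 8 lung and 9 of 10 spleen libraries. The ratio is of scaled FPKM plus 1 and depends on the gene lengths used for FPKM.

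HADHB was at 310 ± 62.0 scaled FPKM in heart and 310 ± 165 in psoas. Longissimus (133 ± 26.7) differed from psoas and from liver (105 ± 30.0), and liver from kidney (63.7 ± 19.9). Kidney and adipose (61.4 ± 13.5) did not pass (adjusted p = 0.847). Spleen, ovary and lung lay at 20.4 to 24.7 with no step between neighbours (0.154 and 0.299), though spleen was above lung (0.0176). The order of liver and kidney rests on the scaling. In deposited FPKM longissimus (83.2 ± 20.3), kidney (76.2 ± 18.1) and liver (73.6 ± 24.4) had means within their spread, with kidney above liver. Heart (258 ± 44.4) then had a higher mean than psoas (194 ± 107). HADHA, the other subunit of the trifunctional protein and the neighbouring gene in the Sscrofa11.1 annotation, was the gene most like HADHB over the 83 libraries, with a Pearson r of 0.97.

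ACAA2 had another order, led by liver at 345 ± 157 scaled FPKM (n = 9), followed by heart at 201 ± 34.8, psoas at 118 ± 26.95, kidney at 61.2 ± 25.9 and longissimus at 59.8 ± 15.4. Adipose was at 43.1 ± 12.5, ovary at 18.4 ± 1.84, spleen at 11.2 ± 2.01 and lung at 8.86 ± 1.31. Longissimus against kidney (adjusted p = 0.925) and spleen against lung (0.137) were the neighbours that did not pass. Livers spread widely, from 88.2 in Large White over a median of 340 to 552 in Jinhua and Hampshire. The liver level of PANK1 in Large White (51.6) was not apart from the rest. Liver above heart rests on the scaling too: the log2 difference of 0.63 ± 0.18 (adjusted p = 0.00187) became 0.35 (0.0691) on deposited FPKM and 0.10 (0.651) after quantile normalization. The place of kidney did as well. Its deposited mean (72.9 ± 25.5) was beside that of psoas (72.7 ± 17.5) and above that of longissimus (36.9 ± 8.51).

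The thiolases were in opposite balance in muscle and liver. HADHB exceeded ACAA2 in 29 of 29 striated muscle libraries, with a mean log2 ratio of 1.26 ± 0.77 in psoas, 1.16 ± 0.37 in longissimus and 0.62 ± 0.26 in heart. Lung (1.13 ± 0.15) and spleen (1.09 ± 0.21), where both genes are low, also had positive means. In liver ACAA2 was the higher in 9 of 9 libraries, at -1.58 ± 0.73, though in Large White the pair was level (-0.01). Kidney (0.10 ± 0.37) was split, with HADHB higher in 4 of 9.

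**Figure D2:**
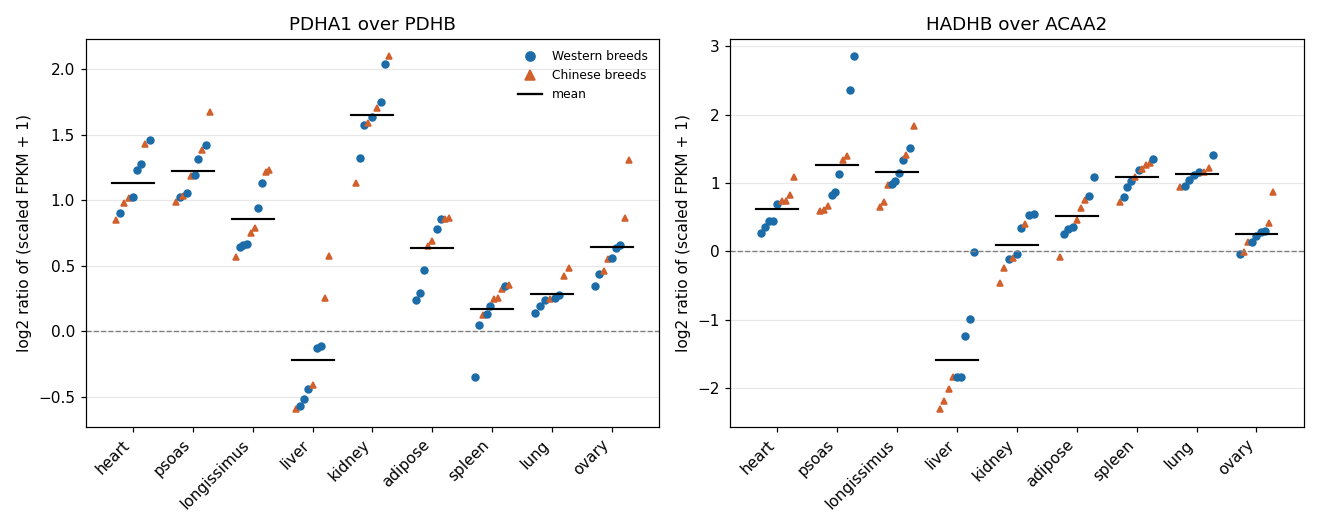
Log2 ratio of PDHA1 to PDHB (left) and of HADHB to ACAA2 (right) within each of the 83 libraries, on scaled FPKM plus 1; points are breeds, bars are means and the dashed line marks equal levels. Liver has the lowest mean in both panels, -0.22 and -1.58, while kidney leads on the left with 1.65 and psoas on the right with 1.26.

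PANK1 was the most uneven of the 6. Liver had 55.6 ± 16.2 scaled FPKM, kidney 16.3 ± 4.18, psoas 9.34 ± 4.41, heart 6.51 ± 1.93 and longissimus 3.15 ± 1.77. Lung was at 2.55 ± 0.502, spleen at 1.07 ± 0.396, ovary at 1.01 ± 0.327 and adipose at 0.550 ± 0.213, a 101-fold range of means. Psoas against heart (adjusted p = 0.0730), longissimus against lung (0.409), spleen against ovary (0.916) and ovary against adipose (0.0531) did not pass, while spleen was above adipose (0.0402). On scaled FPKM the lowest liver (32.5, Meishan) was above the highest kidney (25.3, Hampshire). This gap rests on the scaling. On deposited FPKM the lowest liver (23.8) was below the highest kidney (26.6), though liver still had the higher mean (38.5 against 19.5). Lung (2.97 to 5.34) then had a higher mean than longissimus (0.706 to 4.46). Adipose makes much acetyl coenzyme A for fat synthesis, and of the other pantothenate kinases PANK3 had its highest tissue mean there, 17.0 scaled FPKM with a range of 7.36 to 40.7.

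PDK1 was low everywhere next to the subunit it acts on, and had an order of its own. Heart led at 23.5 ± 5.68 scaled FPKM, ahead of psoas at 14.7 ± 4.72 (adjusted p = 2.12e-05). Psoas, spleen (12.8 ± 4.19), liver (11.2 ± 1.76), adipose (10.7 ± 2.12) and longissimus (9.48 ± 2.59) followed in steps of which no neighbours passed (adjusted p 0.210 to 0.712). Farther apart in this order, psoas was above adipose (0.0232) and longissimus (0.00193), and spleen above longissimus (0.00901). Lung (5.27 ± 1.80), kidney (3.94 ± 0.833) and ovary (3.38 ± 0.508) lay below on scaled FPKM. The order below heart rests on the scaling. In deposited FPKM heart still had the highest mean (19.6), but spleen came next at 17.1. Adipose (11.3) was then above psoas (9.08), and lung (7.88) above longissimus (5.84). Set against PDHA1, PDK1 was least in kidney, at a log2 ratio of -5.72 ± 0.38, and most in spleen, at -1.33 ± 0.47. Of the other kinases of the complex, PDK4 and PDK2 had higher means than PDK1 in heart and psoas, and PDK3 had lower ones. In heart PDK4 had 193 ± 133, PDK2 80.1 ± 18.0 and PDK3 7.12 ± 1.75 scaled FPKM, and in psoas PDK4, known to rise in fasting, had 1148 ± 389, PDK2 154 ± 42.5 and PDK3 4.70 ± 0.834.

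The genes closest to each member over the 83 libraries, by Pearson r of log2 levels among 10585 genes with a symbol, are given next. For PDHA1 they were ACADL (0.96), DLAT, the E2 core of the same complex (0.95), and MDH1 (0.94). For PDHB they were CHCHD10 (0.98), SDHD (0.97) and DNAJC19 (0.97). After HADHA, HADHB was closest to ETFDH (0.95), which passes electrons from beta oxidation to ubiquinone, and NDUFA9 (0.94). ACAA2 was closest to ACADSB (0.93), DECR1 (0.92) and ETFB (0.92), and PANK1 to ALDH5A1 (0.93), ARVCF (0.90) and CPOX (0.89). PDK1 had no close companion, with PPP2R5C (0.82), PALMD (0.78) and PITPNM2 (0.78) first. Among the members, HADHB and PDHB had an r of 0.94, PDHA1 and PDHB 0.93, and PDK1 and PANK1 0.12. These values describe tissue profiles, since the libraries of a tissue share it.

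The first comparison within striated muscle set psoas major, a postural muscle of the loin, against longissimus dorsi, the long back muscle, in the same 10 breeds. Fuel entry genes stood higher in psoas. Of the 6 members 5 were higher and none was lower by limma with breed as a block, where 12.2% of 12112 genes were higher and 15.8% lower (28% called in all). The median log2 difference of the members was 0.79, and that of all genes -0.02. Earlier results of these data had named several of the members for this difference, so the count is not independent evidence.

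On the pyruvate side, PDHA1 was higher in psoas in 10 of 10 breeds, by 1.09-fold in Landrace up to 2.32-fold in Piétrain. Psoas values ran from 315 over a median of 412 to 661 scaled FPKM, and longissimus values from 208 over 279 to 407, so the ranges overlapped although each breed moved the same way. The log2 difference was 0.61 ± 0.10 (SE; adjusted p = 0.00153). PDHB was higher in 8 of 10 breeds with a log2 difference of 0.24 ± 0.09 (95% interval 0.05 to 0.43, adjusted p = 0.0613), and in Landrace it was lower in psoas (212) than in longissimus (257). Without Landrace PDHB passed (0.30, adjusted p = 0.0219), and it also passed under 2 of the alternative settings. The ratio of PDHA1 to PDHB was higher in psoas in 9 of 10 breeds, by a mean log2 of 0.37 ± 0.18 (SD).

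PDK1 was higher in psoas in 9 of 10 breeds, with Rongchang the exception (6.69 against 7.55 scaled FPKM). Its log2 difference was 0.56 ± 0.13 (SE; adjusted p = 0.00653). Without the block for breed it did not pass (adjusted p = 0.0729), nor without Hampshire, Piétrain and Jinhua together (0.40, adjusted p = 0.0634). The ratio of PDK1 to PDHA1 showed no common direction: it was higher in psoas in 5 of 10 breeds.

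On the fatty acid side, HADHB was higher in psoas in 10 of 10 breeds, but unequally. Piétrain had 595 scaled FPKM in psoas against 101 in longissimus, Hampshire 565 against 137 and Jinhua 466 against 163. The other 7 breeds lay between 164 and 246 in psoas, and longissimus ranged from 94.4 to 176 in all 10. The overall log2 difference was 1.08 ± 0.21 (adjusted p = 0.00303), and without those 3 breeds, left out after their values had been seen, it was 0.68 ± 0.09 (adjusted p = 0.00292). HADHA had its highest psoas values in the same 3 breeds, 463 in Piétrain, 517 in Hampshire and 626 in Jinhua, against 226 to 380 in the other 7. CPT1B, the muscle form of the enzyme that commits fatty acids to the mitochondrion, was highest in psoas of Jinhua (289) and Piétrain (259), while Hampshire (194) lay beside Bamei (197). Fibre markers moved with these breeds in part. Slow fibre sums in psoas were lowest in Hampshire (8338 scaled FPKM) and Piétrain (8677), with Jinhua at 12595 and the highest at 25612. Fast fibre sums were lowest in Bamei (13755), Jinhua (16718), Piétrain (21934) and Hampshire (30048), in that order. Their part in the HADHB split was not tested.

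ACAA2 moved more evenly than HADHB. It was higher in psoas in 10 of 10 breeds, by 1.20-fold in Landrace to 2.90-fold in Jinhua, with a log2 difference of 0.98 ± 0.12 (adjusted p = 0.000259). Hampshire, among the highest for HADHB, had the lowest ACAA2 of the psoas samples, 77.5 scaled FPKM, and Jinhua the highest, 177. The thiolase genes thus rose together from longissimus to psoas but did not rank the breeds alike.

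PANK1 had the largest log2 difference of the 6 between the muscles, 1.30 ± 0.19 (adjusted p = 0.000776), higher in psoas in 10 of 10 breeds and by 1.58-fold in Rongchang to 9.25-fold in Piétrain. Berkshire had the highest level in both muscles, 16.7 and 7.12 scaled FPKM. The Berkshire muscles were also highest in PPARGC1A, a coactivator of mitochondrial genes, with 73.4 in psoas and 221 in longissimus, against 4.86 to 46.6 and 5.05 to 64.8 in the other breeds. Jinhua, next in PANK1 in psoas with 14.4, had 11.6 of PPARGC1A, so the pair did not follow each other in every breed.

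**Figure D3:**
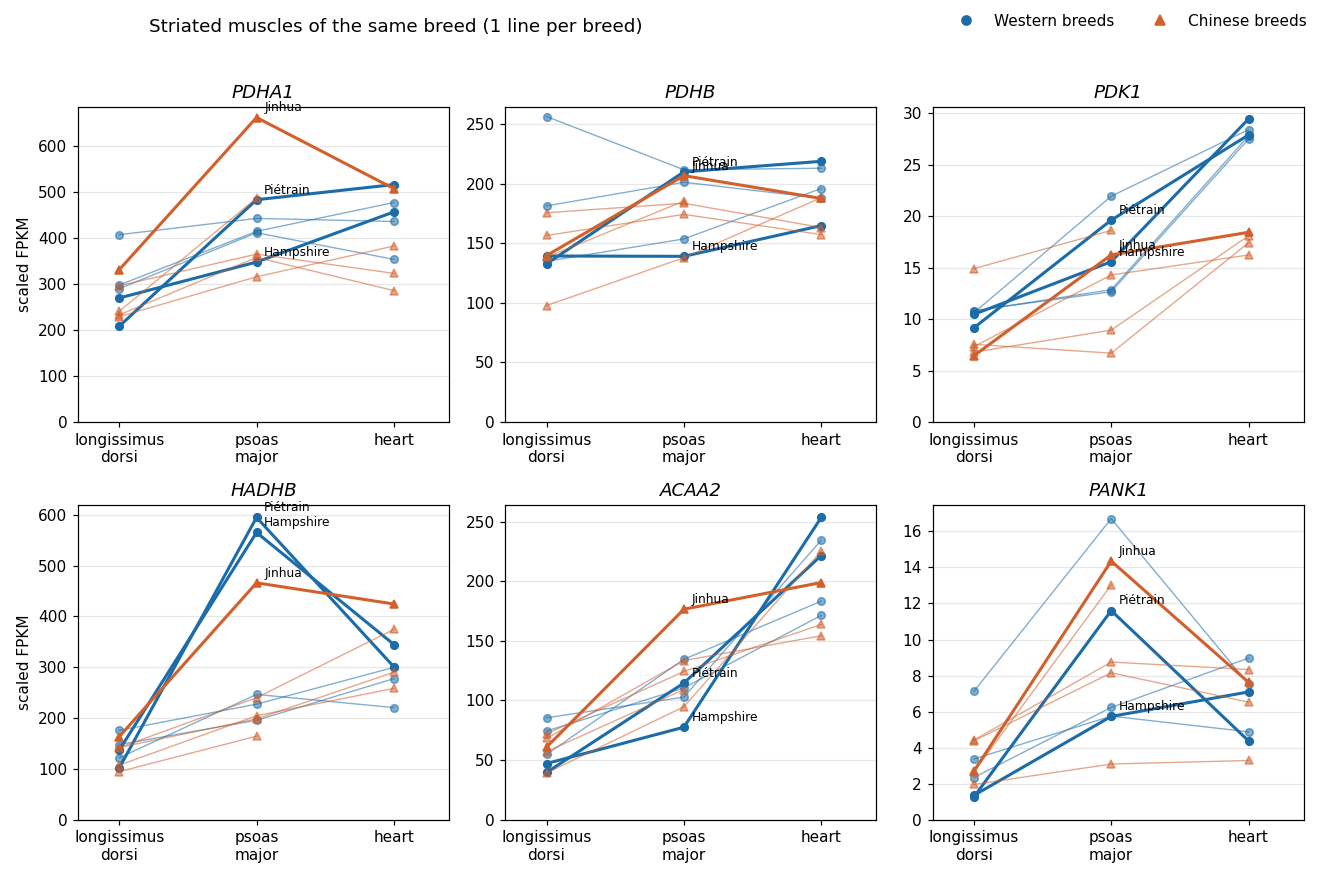
Scaled FPKM of each gene in longissimus dorsi, psoas major and heart, with 1 line per breed and the axis starting at 0; Piétrain, Hampshire and Jinhua are drawn thick. HADHB in psoas splits into these 3 breeds at 466 to 595 and the other 7 at 164 to 246, while PDK1 and ACAA2 peak in heart in 9 of 9 breeds.

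Most beta oxidation genes shared the direction of HADHB and ACAA2 in psoas, and the other lists did so in part. Of 16 tested genes of beta oxidation and fatty acid entry 13 were higher and none lower, with a median log2 difference of 0.51. Among all genes 12.2% were higher and 15.8% lower, and each list below is read against these shares. ACADL (0.52 ± 0.07), ACADM (0.56 ± 0.08), the acyl-CoA dehydrogenases of long and medium chains, DECR1 (0.43 ± 0.06) and ECI2 (0.51 ± 0.08) had the smallest adjusted p. Of 9 tested genes of the pyruvate dehydrogenase complex and its regulators 5 were higher, among them PDK2 (0.57 ± 0.10), DLD, the E3 subunit (0.40 ± 0.09), PDHX (0.32 ± 0.09) and the phosphatase PDP1 (0.31 ± 0.10), so a kinase and its opponent were both higher. Of 5 ketone and thiolase genes 3 were higher: OXCT1, which lets muscle use ketone bodies (0.61 ± 0.06), ACAT1 (0.34 ± 0.08) and BDH1 (0.39 ± 0.11). Coenzyme A synthesis was called in 1 of 6, PANK3 (0.22 ± 0.06), a share near that of all genes, and did not share the size of the PANK1 difference. Of 8 transcription regulators ESRRA (0.49 ± 0.11), PPARA (0.79 ± 0.19) and HIF1A (0.22 ± 0.06) were higher. The genes for other fates of pyruvate that were tested, 2 in number, were lower: LDHA, which makes lactate, by a log2 difference of -0.81 ± 0.15, and PC, which makes oxaloacetate, by -0.77 ± 0.15.

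Other cell and fibre markers moved between these muscles as well, where 12.2% of all genes were higher in psoas and 15.8% lower. Of 5 tested skeletal muscle markers 5 were lower in psoas, with a median log2 difference of -0.57 (sums of 24081 to 81299 scaled FPKM against 35712 to 125756). Of 4 fast fibre markers 3 were lower in psoas and of 4 slow fibre markers MYL3 was higher. Fast fibre sums ran from 13755 to 41832 scaled FPKM in psoas and from 19743 to 70842 in longissimus. The skeletal muscle and fast fibre lists share genes, MYL1 and TNNC2 among them, so their counts overlap and are not separate results. Of 5 tested adipocyte markers 3 were lower in psoas (sums of 109 to 249 against 179 to 370). Of 8 liver markers 7 were lower, with sums of 0.782 to 7.09 in psoas of 9 breeds, a higher one in Meishan, and 0.803 to 271 in longissimus. No matched marker of these 5 lists was at 0 in all libraries of either muscle. Liver was the tissue with the most ACAA2 and PANK1. The part of these markers, those of liver included, in the member differences was not tested.

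**Figure D4:**
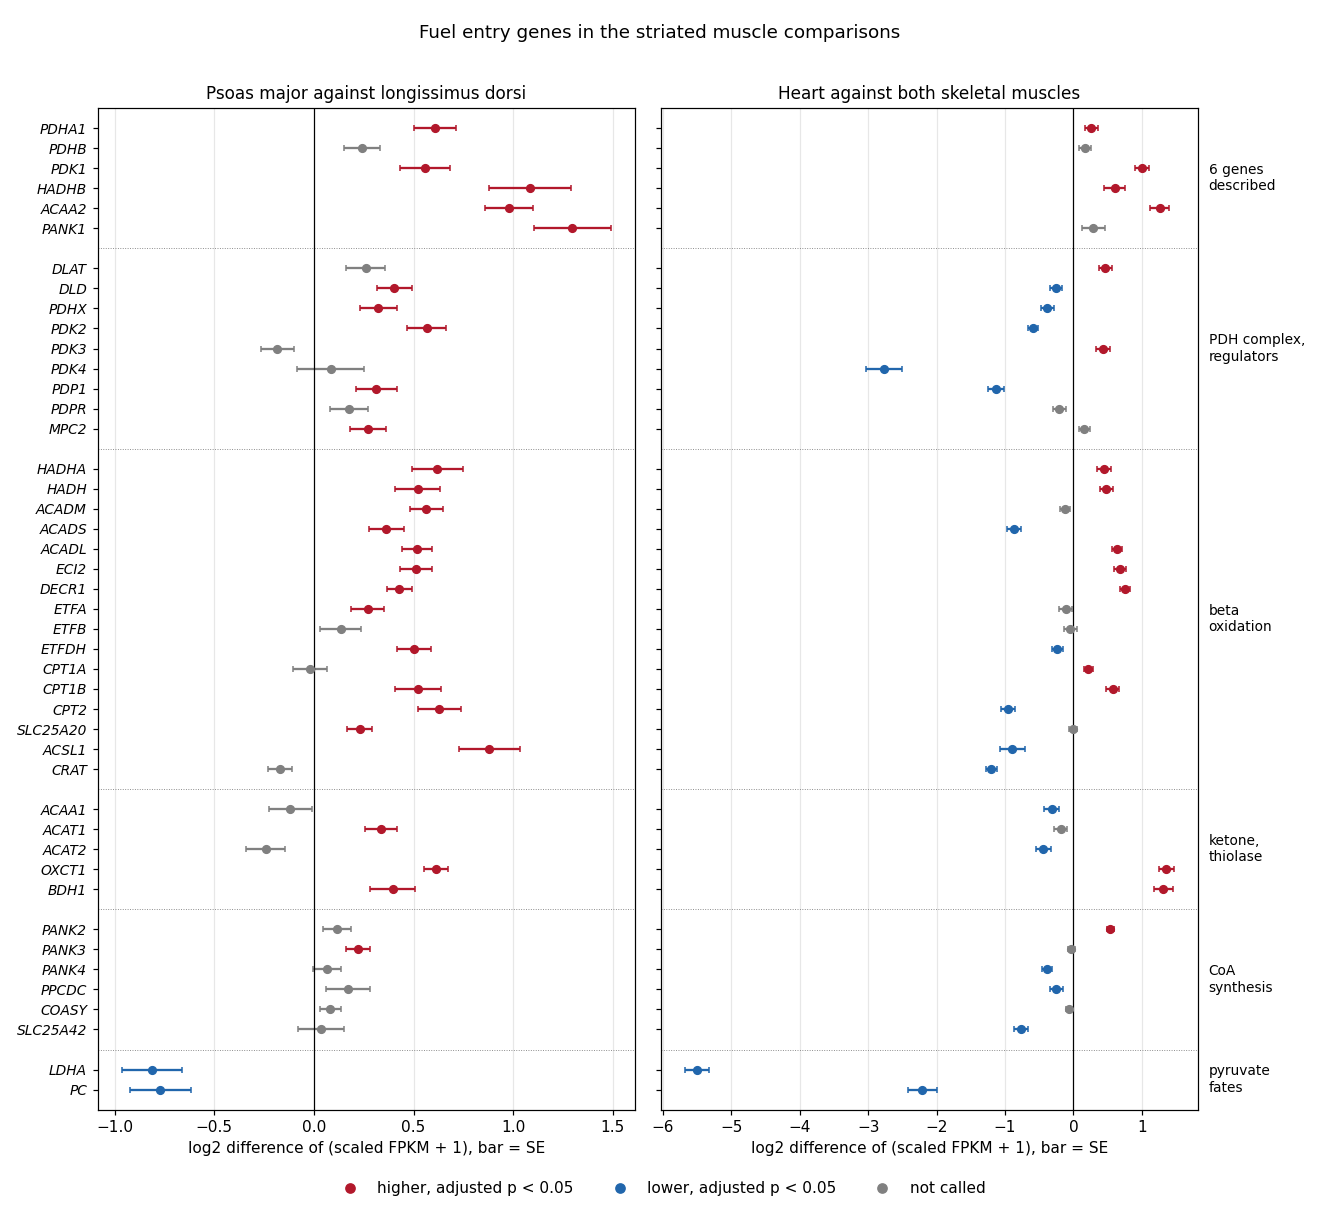
Log2 difference with its SE for the members and for list genes in psoas major against longissimus dorsi (left) and heart against both skeletal muscles (right); red and blue mark genes called higher and lower at an adjusted p below 0.05, grey the rest. In psoas 13 of 16 beta oxidation genes are called higher, in heart 7 are called higher and 5 lower, and LDHA lies at -5.50.

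The second comparison set heart against the average of psoas and longissimus in 9 breeds. Of the members 4 were higher in heart and none lower; 34.8% of 12955 genes were higher and 34.3% lower, so 69.1% were called. The scaling bears on these directions. On deposited FPKM the median of all genes moved to a log2 difference of 0.32 from 0.00 and 80.3% of calls were higher in heart, against 50.4% on scaled values. Other cell markers moved here too. Of 5 adipocyte markers 5 were lower in heart (sums of 49.7 to 126 scaled FPKM, against the muscle sums given above), and of 8 liver markers 7 were lower (sums of 0.195 to 8.72). Of 3 red blood cell markers 2 were higher and 1 lower, with sums of 344 to 2317 in heart, 269 to 2406 in psoas and 227 to 2656 in longissimus. This list is not uniform. SPTB had a mean of 63.9 in psoas, 15.3 in heart and 0.479 in spleen, where HBB had its highest mean (4354). No matched marker of these lists was at 0 in all hearts, and their part in the member differences was not tested.

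PDK1 doubled in heart, with a log2 difference of 1.00 ± 0.10 (adjusted p = 3.46e-08). It was above both muscles of its breed in 9 of 9 breeds, by 1.59-fold to 2.45-fold over their geometric mean. ACAA2 rose by 1.26 ± 0.14 (adjusted p = 1.19e-07), above both muscles in 9 of 9 breeds, and heart values (154 to 254 scaled FPKM) overlapped those of psoas (77.5 to 177) through Jinhua alone. HADHB rose by 0.61 ± 0.16 (adjusted p = 0.00187) over the mean of the muscles in 9 of 9 breeds, but stood above psoas in 5 of 9. Its ratio to ACAA2 was lower in heart than in the muscles in 7 of 9 breeds, by a mean log2 of -0.65 ± 0.63 (SD).

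The E1 subunits differed least. PDHA1 was higher in heart by 0.26 ± 0.10 (adjusted p = 0.0192) in 7 of 9 breeds, a call lost without the block (0.0695) and without Berkshire (0.0514), Hampshire (0.0601) or Bamei (0.0551). PDHB had a log2 difference of 0.17 ± 0.09 (95% interval -0.02 to 0.36, adjusted p = 0.0969) and passed without Landrace (0.21, adjusted p = 0.0467). PANK1 had 0.29 ± 0.17 (interval -0.05 to 0.64, adjusted p = 0.123) and was above both muscles in 3 of 9 breeds. On deposited FPKM both passed, at 0.59 each (adjusted p = 4.95e-07 and 0.00274), and PDHB also after quantile normalization (0.47, adjusted p = 4.88e-06).

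The kinases of the complex went different ways in heart. PDK4 fell by 2.77 and PDK2 by 0.60 on the log2 scale, while PDK3 rose by 0.44 ± 0.10 beside PDK1. The phosphatase PDP1 fell by 1.13, and the core subunit DLAT rose by 0.47 ± 0.09. Of 9 genes of this list 2 were higher and 5 lower, where 34.8% of all genes were higher and 34.3% lower. Calls were thus common among all genes, and the count does not set this list apart. PDK4 still had the highest mean of the 4 kinases in heart, 193 scaled FPKM against 23.5 of PDK1. Heart PDK4 ranged from 58.8 in Berkshire to 400 in Jinhua, a wider spread than that of PDK1.

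Beta oxidation genes went both ways in heart, with 7 of 16 higher and 5 lower and a median log2 difference of -0.03, and the share called was near the 69.1% of all genes. DECR1, an enzyme for unsaturated chains, rose by 0.76 ± 0.07, while CRAT, the carnitine acetyltransferase, fell by 1.20, CPT2 fell by 0.96 and ACADS fell by 0.87. Of 5 ketone and thiolase genes 2 were higher and 2 lower: OXCT1 rose by 1.36 ± 0.11 and BDH1 by 1.32 ± 0.14, while ACAT2 fell by 0.44 and ACAA1 fell by 0.31. Of 6 genes of coenzyme A synthesis 4 were called, a share near that of all genes too: PANK2, a mitochondrial form in humans, rose by 0.54 ± 0.05, and SLC25A42, PANK4 and PPCDC fell, by 0.76, 0.39 and 0.25. LDHA fell by 5.50, from 5712 ± 2831 scaled FPKM in longissimus and 3365 ± 1716 in psoas to 87.6 ± 36.5 in heart, and PC fell by 2.21. Of 8 transcription regulators HIF1A (0.69 ± 0.08), PPARGC1B (0.89 ± 0.14) and EPAS1 (0.39 ± 0.09) were higher in heart and PPARD fell by 0.43. Counts of the ketone and regulator lists are read against the same 69.1% and do not set these lists apart.

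The third comparison set Chinese against Western breeds. On the mean log2 level over 8 tissues in 9 breeds, 0 of 6 members were called, and 0.306% of 16996 genes were (52 genes by limma, 1416 at an unadjusted p below 0.05). The nearest were PDK1, with Chinese minus Western at -0.20 (unadjusted p = 0.0330, adjusted 0.534), and PDHB, at -0.16 (0.0546, adjusted 0.613). The psoas minus longissimus difference was tested for origin too, and 0 of 12112 genes (0%) were called (588 at an unadjusted p below 0.05), members included.

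Within single tissues 1 member passed once: PDK1 in heart. Each tissue was adjusted by itself, so no adjustment covers the 9 tissues together. The genes called by origin were 0.23% of those tested in heart, 0.229% in kidney, 0.164% in lung, 0.161% in liver, 0.101% in adipose, 0.0601% in ovary, 0.0432% in longissimus, 0.0261% in psoas and 0% in spleen, where 666 genes had an unadjusted p below 0.05. PANK1 was too low in adipose to be tested. The hearts of Western breeds had 27.5 (Berkshire), 29.5 (Hampshire), 28.4 (Landrace), 27.8 (Large White) and 27.9 (Piétrain) scaled FPKM. The hearts of Chinese breeds had 16.2 (Bamei), 18.4 (Jinhua), 18.1 (Meishan) and 17.4 (Rongchang). The groups did not overlap and each was narrow, at 28.2 ± 0.769 (SD, n = 5) and 17.6 ± 0.972 (n = 4). On deposited FPKM, at 20.8 to 26.2 and 13.7 to 15.9, they did not overlap either. The share of all genes without overlap between these groups is not given here. The gaps, here and in adipose below, are therefore descriptions. Chinese minus Western was -0.66 ± 0.07 (SE; limma adjusted p = 0.00786), where 0.107% of 12161 genes were lower. The call held on leaving out each breed in turn (log2 difference -0.68 to -0.62, adjusted p 0.0204 to 0.0400). Long noncoding RNA genes overlap PDK1 in the Sscrofa11.1 annotation, and without strand their reads cannot be told from it. Scaling factors of these hearts overlapped, at 0.744 to 0.941 in Western and 0.785 to 0.882 in Chinese breeds, and so did the number of genes at 1 FPKM or more, 11299 to 12016 and 11518 to 11874. Of 9 further genes of the complex and its regulators 0 were called in heart by origin, the nearest being PDK4 at a log2 difference of 1.00 ± 0.54 (unadjusted p = 0.0967, adjusted 0.764). Of 5 heart markers and 3 red blood cell markers tested there, 0 were called.

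**Figure D5:**
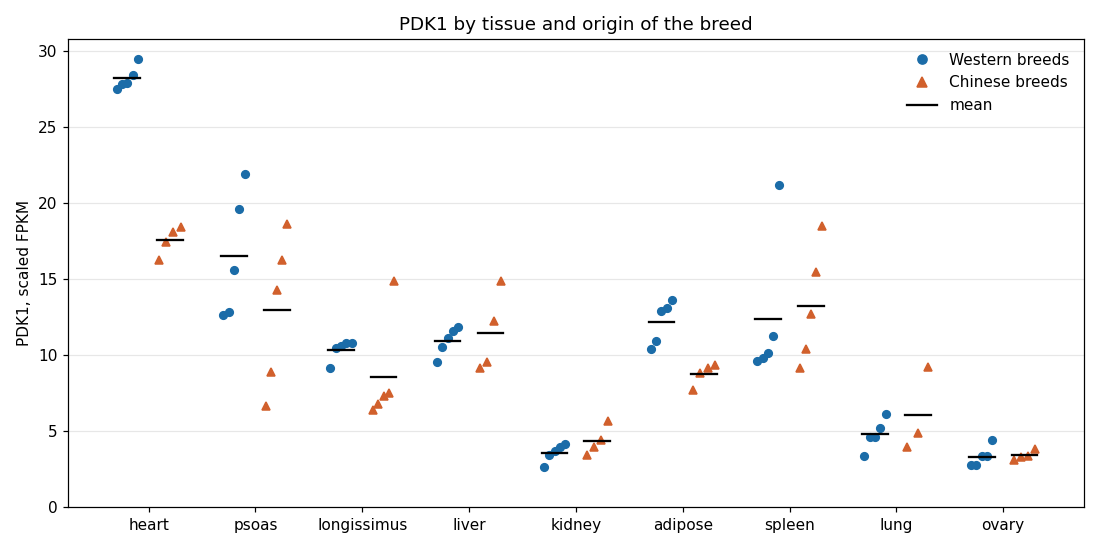
PDK1 in scaled FPKM (linear axis from 0) by tissue, Western breeds as circles and Chinese breeds as triangles, bars are means. In heart the Western breeds lie at 27.5 to 29.5 and the Chinese breeds at 16.2 to 18.4, and adipose has the other gap between the groups.

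Subcutaneous adipose was the other tissue in which PDK1 did not overlap, with 10.4 to 13.7 scaled FPKM in 5 Western and 7.75 to 9.38 in 4 Chinese breeds; it was not called there (log2 -0.43 ± 0.11, adjusted p = 0.328). On deposited FPKM the adipose groups overlapped (10.4 to 14.5 against 8.39 to 10.4). In longissimus 4 of 5 Chinese breeds lay at 6.43 to 7.55, below the 9.15 to 10.8 of the Western breeds, and Tibetan wild boar at 14.9 lay above them. In liver, spleen, kidney, lung, ovary and psoas the groups overlapped. Whether the heart stands apart from the other tissues was tested as heart minus the mean of the other 7 tissues of a breed, chosen after the heart values had been seen. That difference was -0.52 ± 0.11 for PDK1 (unadjusted p = 0.00100, adjusted 0.391), and 0 of 16996 genes passed (0% called, 1218 at an unadjusted p below 0.05).

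The mixtures, available beside all 9 tissues in 8 breeds, lay between the lowest and the highest tissue of their breed for all 6 genes. PANK1 was above the mean of the tissues in 8 of 8 breeds (1.01 to 1.86 times), ACAA2 in 5 of 8, and PDHA1, PDHB, PDK1 and HADHB were below it in 8 of 8, with HADHB at 0.422 to 0.721 times the mean.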

How the data were processed

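The authors deposited FPKM per gene and library, which per the submitters' processing notes come from TopHat and Cufflinks 2.2.1 with the genome build Sscrofa 10.2; annotation release and options are not given in the sources used here. Per the labels' protocols, total RNA was extracted and sequenced. FPKM keep no read counts, so depth and counting error are unknown. Symbols were looked up by gene ID (11804 of 25322 matched).

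FPKM were divided by median ratios over 12502 genes, with a single factor per tissue library for all comparisons. Each fit took genes that reached 1 FPKM in at least 3 of its libraries. Values were transformed as log2(scaled FPKM + 1) and tested two-sided with limma 3.58.1 under R 4.3.3 (trend, robust, statmod 1.5.0). P were adjusted by Benjamini-Hochberg over every gene tested, and a gene was called below 0.05. Log2 differences are on that scale, which understates low genes; folds are plain ratios of scaled FPKM. Strand was not given, so reads of overlapping genes cannot be told apart: in the Sscrofa11.1 annotation MAP3K15 overlaps PDHA1, long noncoding RNA genes overlap PDK1 and PANK1 (the latter also MIR107), and a pseudogene overlaps HADHB. Breed was a block in tissue comparisons, since same-breed psoas and longissimus deviated together (r 0.325 to 0.531; 10 of 10 breeds best with their own). The remaining steps ran in Python 3.11.15 (matplotlib 3.10.9, pandas 2.3.3, numpy 2.4.6) and data.table in version 1.17.8. Scripts were tested on simulated data. The members, gene lists and the rule for naming (the 6 members, 3 closest genes each, up to 4 called genes of a list with the smallest adjusted p) were chosen with earlier results of these data known; further genes named beside a member were chosen after their values were seen. List genes with no match were not used, and 1 listed gene is not reported here. The alternatives were deposited values without scaling, factors per fit, quantile normalization, 0.1 as pseudocount, filtering at 5 FPKM or not at all, no block, no trend, all tissues in 1 fit, and each breed left out.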

Additional observations from a re-analysis of the deposited data

Results flagged for a closer look

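In 8 of 60 groups (6 genes in 9 tissues and the mixtures) the highest library stood apart from the rest by Dixon's ratio of its gap to the range. For normally distributed values chance flags about 1 in 20 groups. The ratio was taken on scaled FPKM, whose distribution was not tested, so 8 of 60 cannot be read as an excess. In Jinhua these were PDHA1 in psoas major, at 661 scaled FPKM against 486 in the next breed, and PDHA1 in ovary, at 50.3 against 38.1. PDHB was at 257 in longissimus dorsi of Landrace against 182, and at 85.4 in adipose of Large White against 54.1. That adipose library had the lowest skeletal muscle marker sum of the 9 (41.5), and a part of muscle in its PDHB value was not tested. PDK1 was at 14.9 in longissimus dorsi of Tibetan wild boar against 10.8, and at 9.24 in lung of Bamei against 6.11. HADHB was at 110 in kidney of Hampshire against 74.2, and PANK1 at 1.79 in ovary of Meishan against 1.23. The 3 high HADHB libraries of psoas major were not flagged, since 3 high values leave no single gap.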

How the results depend on the processing

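Without the block for breed 639 genes were called between the skeletal muscles in place of 3388, and 1761 without Hampshire, Piétrain and Jinhua. The members called higher were 4 of 6 under each, PDK1 being lost. Without the block the heart call of PDHA1 was lost too, and no other member call changed under these settings. PDHB, not called between the skeletal muscles in the main fit, passed there under 2 of the other alternative settings. For the skeletal muscles leaving out 1 breed gave 2659 to 3407 genes. For PDHA1 in psoas against heart, deposited FPKM gave -0.39 (adjusted p = 0.00100) and quantile normalization -0.26 (0.0431), so the order turned. In the origin comparison over 8 tissues no call depended on a setting, and values near 0 changed sign: PDHA1 to 0.0086 on deposited FPKM, 0.0099 after quantile normalization and 0.043 without Rongchang; PANK1 to 0.0023 on deposited FPKM, 0.042 without Berkshire and 0.12 without Rongchang; ACAA2 to -0.024 without Large White and -0.0056 without Jinhua. For origin and the muscle difference, PDHA1 turned to -0.051 on deposited FPKM, where the median of all genes moved to -0.12; PDK1 turned to 0.019, 0.029 and 0.090 without Landrace, Piétrain or Rongchang, and PANK1 to 0.12 and 0.030 without Piétrain or Rongchang. Leaving out 1 breed gave 0 to 1 called genes there. For origin within heart 28 genes were called, 16 with a pseudocount of 0.1, 7 with a filter at 5 FPKM and 10 to 29 on leaving out 1 breed (10, 14, 15 and 17 without Piétrain, Jinhua, Meishan or Large White); PDK1 was among them in each of these, and PANK1, not called, turned to 0.0068, 0.063 and 0.20 without Berkshire, Large White or Rongchang. The causes of these changes were not tested. Read depth was not known, so what it limits, above all for PANK1 near 1 FPKM, cannot be stated.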
